A study of Mus musculus with 8 samples.

Results

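Mitochondrial ribosomal proteins are the nuclear-encoded proteins of the ribosome inside mitochondria, and their genes carry symbols that begin with Mrpl, for the large subunit, or Mrps, for the small subunit. Every named gene with such a symbol was taken, which gave 61 genes of the 8692 named genes tested. Of these, 38 were Mrpl genes read by 46 probes and 23 were Mrps genes read by 29 probes. RefSeq lists 78 mouse protein-coding genes with these symbols, and the other 17 were not analysed here: Mrpl19, Mrpl22, Mrpl24, Mrpl27, Mrpl32, Mrpl39, Mrpl40, Mrpl41, Mrpl44, Mrpl48, Mrpl50, Mrps2, Mrps14, Mrps18c, Mrps28, Mrps31 and Mrps33. The genes were measured in whole lung of 4 male mice transgenic for Fra-2, the AP-1 transcription factor encoded by Fosl2, at 14 weeks of age on a C57BL6 x CBA background. The promoter of the transgene is not given in the sources used here. Of the 8 arrays, each mouse took 2, once labelled in Cy5 and once in Cy3. The reference channel was always the same pool, made from the lungs of 4 wild-type males of that age and background. The pool counts as 1 control sample, so the spread between wild-type mice is in none of the values. The number of mice limits the precision.

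Mitochondria keep a small genome whose messenger RNAs encode core subunits of the respiratory chain and of ATP synthase, and the mitochondrial ribosome translates only these. Its ribosomal RNAs come from mitochondrial DNA, while all its proteins in mammals are made in the cytosol and imported. Part of them descend from bacterial ribosomal proteins and part were added in the mitochondrial lineage. Heart, muscle and brown fat are rich in this machinery, and defects in single subunit genes cause inherited mitochondrial disease.

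All values are log2 ratios of transgenic over pool, and they give no absolute level of a transcript. That direction is likely only, since it rests on the order of the channels in the labels; with the other direction, higher and lower would exchange throughout. Probe names rest on an offset of 11 between the numbers of the annotation and of the values. It gave a Spearman correlation of 0.224 over 4802 pairs of probes of the same gene, against at most 0.054 at any other of the 121 offsets tried. It was clearly the best in 17 of 21 blocks of 1000 numbers. The remaining 4 blocks hold probes of 12 of the 61 genes, which are Mrpl3, Mrpl4, Mrpl13, Mrpl17, Mrpl33, Mrpl35, Mrpl37, Mrpl46, Mrps9, Mrps17, Mrps18b and Mrps27. The array of mouse 4 with its RNA in Cy3 stood apart, with a standard deviation over probes of 0.768 against 0.413 to 0.457 on the other arrays. Of the 600 values of the member probes, 0 were missing.

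The comparison asked which of these genes differed between transgenic lung and the wild-type pool. Of the 61 genes, 8 were lower (Mrpl3, Mrps30, Mrpl49, Mrpl9, Mrps10, Mrpl38, Mrps22 and Mrps36) and 4 were higher (Mrpl34, Mrpl12, Mrpl28 and Mrpl2), by limma on the means of the 4 mice at an adjusted p under 0.05. These 12 are 19.7% of the members, while 31.9% of all named genes changed, 18.4% lower and 13.5% higher. The other 49 members did not pass the test. At an unadjusted p under 0.05 there were 19 members and 44.5% of all named genes. Only Mrpl3 lay beyond 1.5-fold (1.64% of the members), against 8.16% of all named genes. The members also lay closer together than all named genes. The middle of their distribution, from the lower to the upper quartile, spanned 0.24 on the log2 scale against 0.38 over all named genes. Among related lists described below, this span was 0.19 for mitochondrial translation factors and 0.31 for mitoribosome assembly genes. It was 0.32 for cytosolic ribosomal proteins and 0.67 for regulators of mitochondrial genes. The member median was -0.028, with 36 genes below 0 and 25 above, and the median over all named genes was -0.011. On all 8 arrays 10 members (16.4%) kept one sign, against 27.6% of all named genes.

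**Figure D1:**
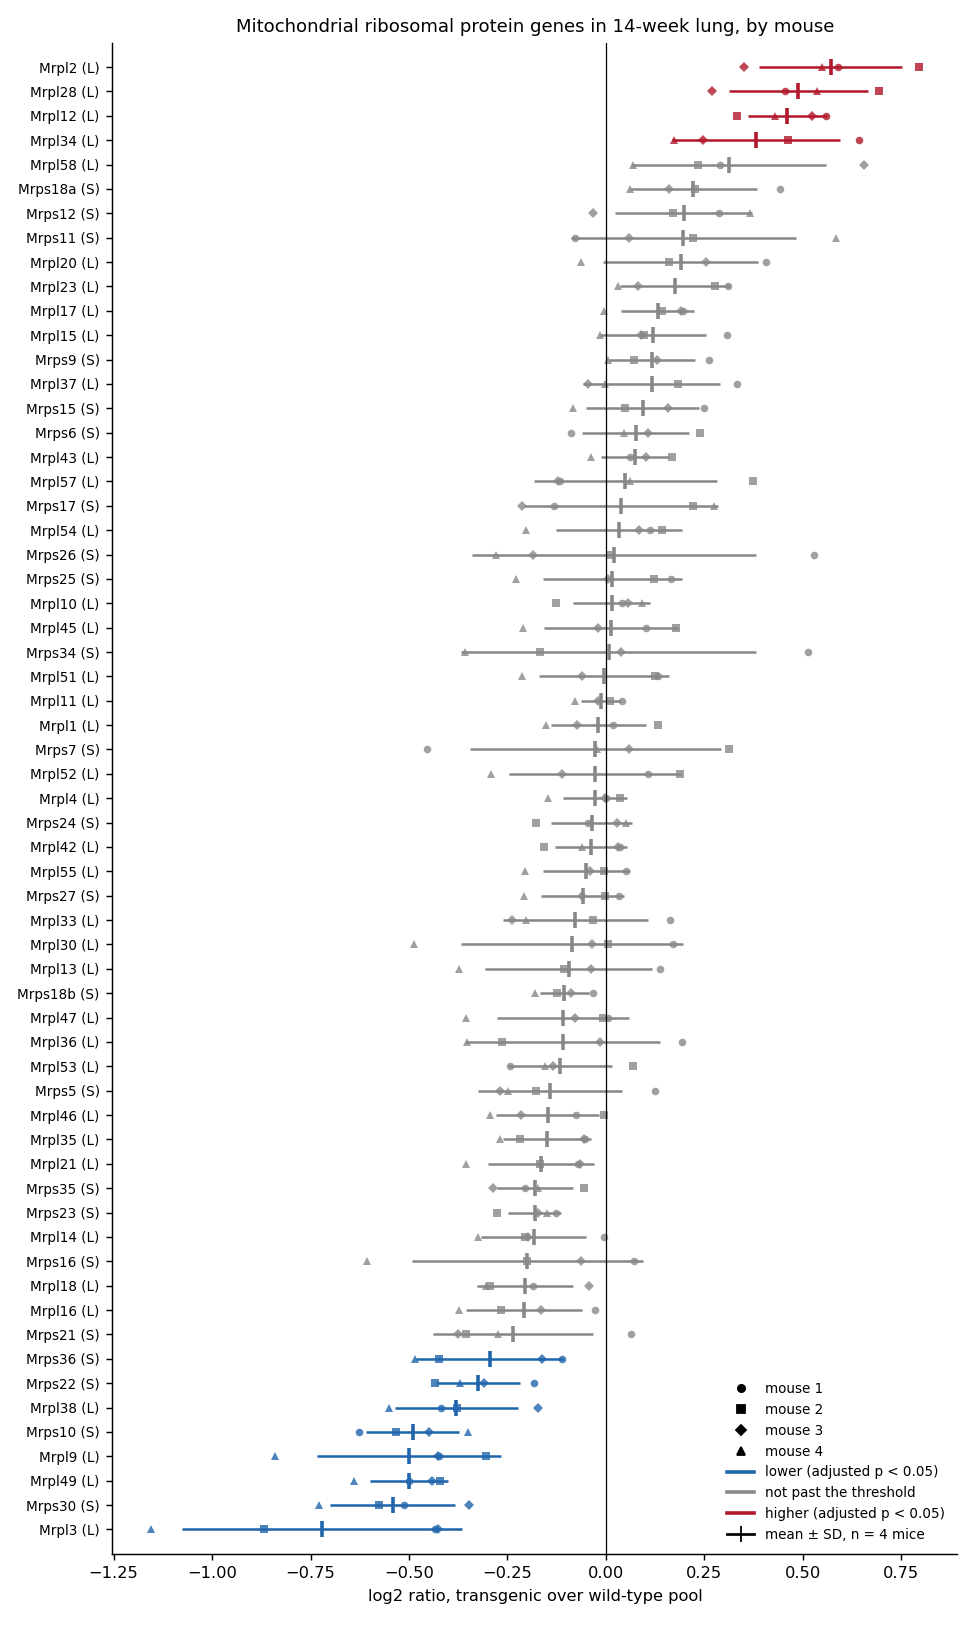
Log2 ratio of transgenic over wild-type pool (x axis) for each of the 61 genes (y axis; L and S mark the subunit by symbol), with a symbol for each mouse, and the mean ± SD of 4 mice as a tick and bar. The 8 lower genes (blue) lie at the bottom and the 4 higher genes (red), all of the large subunit, at the top, with 49 genes in grey between them.

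Among large-subunit genes, Mrpl3 was the lowest. It encodes the homologue of bacterial protein L3, which reaches towards the site of peptide bond formation. Mrpl3 read -0.43, -0.87, -0.43 and -1.16 in mice 1 to 4, so all mice were below 0 and mouse 4 was the lowest. Its mean was -0.72 ± 0.36 (SD, n = 4 mice), or 1.65-fold lower (adjusted p = 0.0081). All 8 arrays were below 0, but its only probe lies in a block where the naming is weak. The Cy3 array of mouse 4, which has the wide spread over probes, read -1.48. On the Cy5 arrays mice 2 and 4 both read -0.83.

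Mrpl9, the homologue of bacterial L9, read -0.42, -0.31, -0.43 and -0.84 in mice 1 to 4. Every array was below 0, and mouse 4 was again the lowest. Its Cy3 array, the one with the wide spread over probes, read -1.11. The Cy5 array of mouse 4 (-0.56) lay near that of mouse 3 (-0.51). The mean was -0.50 ± 0.23 (adjusted p = 0.0108).

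The mitochondria-specific proteins Mrpl49 and Mrpl38 have no bacterial counterpart. Mrpl49 read -0.50, -0.42, -0.44 and -0.64 in mice 1 to 4, a narrow range with every array below 0, and its mean was -0.50 ± 0.10 (adjusted p = 0.0041). Mrpl38, a protein of the central protuberance of the large subunit, read -0.42, -0.38, -0.17 and -0.55, with mouse 3 nearest to 0. Its mean was -0.38 ± 0.16 (adjusted p = 0.0146). For Mrpl38, 1 array lay just above 0 (mouse 3 in Cy5, 0.029), and the call was lost without mouse 1 (adjusted p = 0.0619), without mouse 2 (0.0541) and on the Cy5 arrays alone (0.0734).

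Of the 4 lower genes with an Mrps symbol, only Mrps10 and Mrps22 encode small-subunit proteins in the structure of the mammalian ribosome. Mrps10, the homologue of bacterial S10, read -0.63, -0.53, -0.45 and -0.35 in mice 1 to 4, and mouse 4 was the nearest to 0 in this case. Its mean was -0.49 ± 0.12 (adjusted p = 0.0049), and every array was below 0. Mrps22, a mitochondria-specific protein whose gene is mutated in a form of inherited cardiomyopathy and lactic acidosis, read -0.18, -0.43, -0.31 and -0.37. All arrays were below 0 for Mrps22 and mouse 1 changed least. The mean was -0.32 ± 0.11 (adjusted p = 0.0176), and the call was lost without mouse 2 (0.0776) or mouse 3 (0.0551).

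Mrps30 and Mrps36 carry small-subunit symbols, but their proteins are found elsewhere. The Mrps30 protein sits in the large subunit, where it is also called mL65. Mrps30 read -0.51, -0.58, -0.35 and -0.73 in mice 1 to 4, below 0 on every array, and its mean was -0.54 ± 0.16 (adjusted p = 0.0047). The Mrps36 protein is a component of the alpha-ketoglutarate dehydrogenase complex, an enzyme of the citric acid cycle, and is not a ribosomal subunit. Mrps36 read -0.11, -0.42, -0.16 and -0.48, so mice 2 and 4 read lower than mice 1 and 3. Their arrays overlapped, as the Cy3 array of mouse 3 (-0.37) lay below the Cy5 arrays of mice 2 (-0.30) and 4 (-0.33). The mean was -0.30 ± 0.19 (adjusted p = 0.0433), close to the threshold. Leaving out any 1 mouse ended that call (adjusted p from 0.0622 to 0.151), as did the Cy5 arrays alone (0.225) and the values with nothing set to missing (0.0566).

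All 4 higher genes encode large-subunit proteins with bacterial homologues, as do 25 of the 61 members. Over all named genes 13.5% were higher. Mrpl2 was the highest of the 61; its protein is the counterpart of bacterial L2, which helps to form the catalytic centre. Mrpl2 read 0.59, 0.795, 0.35 and 0.55 in mice 1 to 4, above 0 on every array. Its mean was 0.57 ± 0.18, or 1.49-fold higher (adjusted p = 0.0047). Mrpl28, the homologue of L28, read 0.455, 0.69, 0.27 and 0.535, again with mouse 2 highest and mouse 3 lowest and every array above 0. The mean of Mrpl28 was 0.49 ± 0.18 (adjusted p = 0.0074).

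Mrpl12 encodes the protein of the flexible stalk that receives translation factors. It read 0.56, 0.33, 0.52 and 0.43 in mice 1 to 4, above 0 on all arrays, with a mean of 0.46 ± 0.10 (adjusted p = 0.0053). The arrays differed by dye, however: Mrpl12 read 0.56 to 0.73 on the Cy5 arrays and 0.10 to 0.43 on the Cy3 arrays. On the Cy3 arrays alone its adjusted p was 0.128.

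Mrpl34, the homologue of the short bacterial protein L34, read 0.64, 0.46, 0.25 and 0.17 in mice 1 to 4. All mice were above 0, but the Cy3 array of mouse 4 was below 0 at -0.32. The mean was 0.38 ± 0.21 (adjusted p = 0.0229). The call on Mrpl34 was lost without mouse 1 (0.0935), without mouse 2 (0.0858) and on the Cy3 arrays alone (0.375).

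A pair of genes lay next to the higher group without passing the test. Mrpl58 encodes a ribosome-bound peptidyl-tRNA hydrolase that frees stalled chains; it read 0.29, 0.23, 0.65 and 0.069 in mice 1 to 4, with mouse 3 far above the rest. Its mean was 0.31 ± 0.25 (adjusted p = 0.057), and it passed under 6 alternatives, with adjusted p from 0.0176 to 0.0486. Mrps18a is a paralogue of the bacterial S18 family whose protein sits in the large subunit, and it read 0.44, 0.23, 0.16 and 0.0605. Its mean was 0.22 ± 0.16 (adjusted p = 0.0855), and it passed under 3 alternatives, the Cy5 arrays alone (0.0116), arrays centred and scaled (0.0411) and without the Cy3 array of mouse 4 (0.0248). The related gene Mrps18b, whose protein sits in the small subunit, read -0.033, -0.12, -0.088 and -0.18, all slightly below 0, with a mean of -0.11 ± 0.062 (adjusted p = 0.278). No difference between Mrps18a and Mrps18b was tested.

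The remaining members showed wide differences in spread. Mrpl11, the homologue of L11 at the base of the stalk, lay between -0.079 and 0.041 in all mice (mean -0.012 ± 0.051). Mrps34, a mitochondria-specific small-subunit protein, had a mean of 0.0066 but read 0.51, -0.17, 0.039 and -0.36 in mice 1 to 4. Mrps7 and Mrps26 also had means near 0 with mice far apart, from -0.45 to 0.31 for Mrps7 and from -0.28 to 0.53 for Mrps26. In the limma F test between mice, 0 of 61 members passed an adjusted p of 0.05, against 2.78% of all named genes. At an unadjusted p under 0.05 there were 8 members (20.6% of all named genes). Mrps34 came nearest (adjusted p = 0.0574) and was the only member to pass when all arrays were brought to one median and spread (0.0362), where 5.7% of all named genes passed.

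Of the 13 members read by more than 1 probe, 7 had all probes on one side of 0. Mrpl49 was lower on both probes (-0.63 ± 0.23 and -0.37 ± 0.18), and so was Mrps10 (-0.53 ± 0.22 and -0.45 ± 0.16). Both probes of Mrpl34 were above 0 (0.42 ± 0.073 and 0.34 ± 0.38), and only the more even of them passed in the test over all probes (adjusted p = 0.0103 and 0.116). Mrpl17 disagreed most: 1 of its 3 probes was higher (0.43 ± 0.18, adjusted p = 0.0172), while the others read 0.082 ± 0.15 and -0.11 ± 0.14. The mean of Mrpl17 over its probes was 0.13 ± 0.093 (adjusted p = 0.207). Mrps6 was split as widely, with probes at 0.34 ± 0.27 and -0.19 ± 0.30 that both missed the threshold. In Mrpl21 and Mrps23 1 of 2 probes was lower (-0.28 ± 0.086 and -0.29 ± 0.11), and the gene means, -0.16 and -0.18, did not pass. Counted by probe, 11 of 75 were lower and 5 higher, where 14.6% and 11.1% of all probes were.

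**Figure D2:**
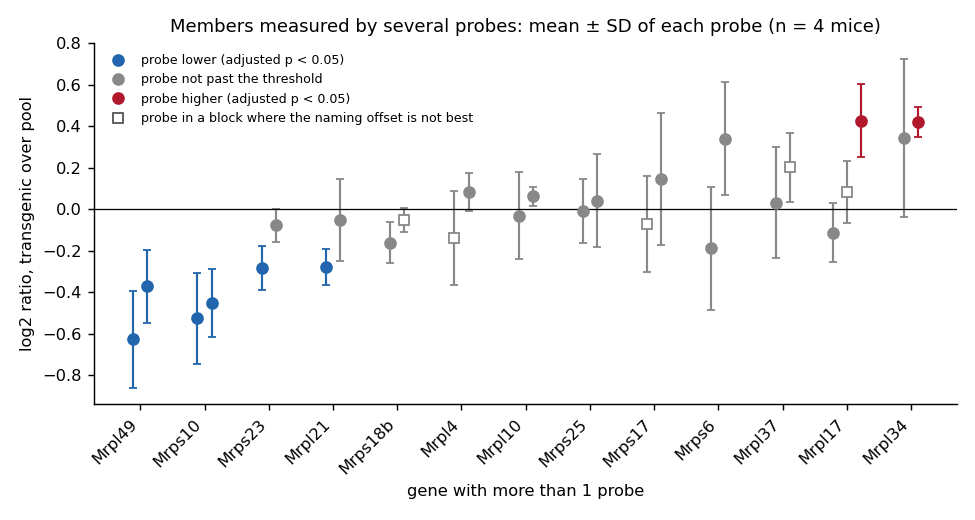
Mean log2 ratio ± SD over 4 mice (y axis) of each probe of the 13 genes with more than 1 probe (x axis, ordered by gene mean); colour marks the test over all probes and an open square a probe in a weakly named block. The probes of Mrpl49 and Mrps10 lie together below 0, while those of Mrpl17 and Mrps6 lie on both sides of it.

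Large and small subunit genes had nearly the same median. The median log2 ratio was -0.028 over the 38 Mrpl genes, of which 4 were lower and 4 higher, and -0.036 over the 23 Mrps genes, of which 4 were lower and 0 higher (8 Mrps genes had an unadjusted p under 0.05 in the limma test). The calls were 21.1% of the Mrpl genes and 17.4% of the Mrps genes, against 31.9% of all named genes (18.4% lower and 13.5% higher). At an unadjusted p under 0.05 in the limma test the share of all named genes was 44.5%. The difference of medians, large minus small, was 0.0084, and it read 0.089, 0.079, 0.024 and -0.0215 in mice 1 to 4 (SD 0.0515). So mouse 4 pointed the other way, and the difference of medians was smaller than its spread over mice. Without mouse 1 it was 0.075. As a difference of means over genes it was larger, 0.0586, and read 0.070, 0.106, 0.090 and -0.0325 in mice 1 to 4 (SD 0.0625). Placing genes by the ribosome structure moved Mrps30 and Mrps18a to the large subunit and left out Mrps36. The 40 large-subunit genes then counted 5 lower and 4 higher (22.5% in all), and the 20 small-subunit genes 2 lower, Mrps10 and Mrps22, and 0 higher (10.0%). The difference of medians was 0.0036.

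The genes were also grouped by the ancestry of their proteins. The 37 genes with bacterial homologues had a median of -0.028, with 3 lower (Mrpl3, Mrpl9 and Mrps10) and 4 higher. The 23 genes classed as mitochondria-specific also had a median of -0.028, with 4 lower (Mrps30, Mrpl49, Mrpl38 and Mrps22) and 0 higher (8 had an unadjusted p under 0.05). Mrps18a and Mrps18b, neither of them called, were counted in this class although they belong to the bacterial S18 family, so the split by ancestry is not strict. The highest of the mitochondria-specific genes was Mrpl58, which did not pass. The calls were 18.9% of the bacterial homologues and 17.4% of the mitochondria-specific genes, against 31.9% of all named genes (18.4% lower and 13.5% higher). At an unadjusted p under 0.05 in the limma test the share of all named genes was 44.5%. By means over genes the bacterial homologues lay 0.0597 above the mitochondria-specific genes, with 0.0545, 0.028, 0.054 and 0.102 in mice 1 to 4 (SD 0.031). No difference between these counts was tested.

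The median of the whole group differed between mice and arrays. The member median was 0.0405, 0.0055, -0.0425 and -0.2025 in mice 1 to 4, so mice 1 and 2 were above 0 and mouse 4 was the lowest. Mouse 4 was also lowest in the median over all named genes (-0.06). On the Cy5 arrays the member median lay between 0.029 and 0.101, and on the Cy3 arrays it read 0.038, -0.039, -0.106 and -0.30. The Cy3 array of mouse 4, which has the wide spread over all probes, was thus the lowest, and there the median over all named genes was -0.16. Without that array the member median was 0.0037, with 8 members lower and 8 higher, where 18.2% of all named genes were lower and 15.5% higher. With the Cy5 arrays alone it was 0.0096, with 6 members lower (16.1% of all named genes) and 10 higher (16.2%). With the Cy3 arrays alone it was -0.086, with 10 members lower (14.3%) and 2 higher (7.9%). Leaving out mice 1, 2, 3 and 4 in turn gave 6, 5, 6 and 7 lower members, where 10.9%, 11.5%, 13.9% and 13.2% of all named genes were lower. The same steps gave 3, 3, 4 and 5 higher members, where 6.94%, 8.37%, 8.86% and 11% were higher. A fit of the 8 arrays with the mouse as a random block called 9 members lower (21.8% of all named genes) and 5 higher (15.5%). Over members, 49 of 61 (80.3%) read higher on Cy5 than on Cy3 arrays, compared with 63.1% of all named genes. The limma test on that dye difference called 0 members at an adjusted p of 0.05 and 19 at an unadjusted p, where 0.0% and 26.7% of all named genes passed.

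**Figure D3:**
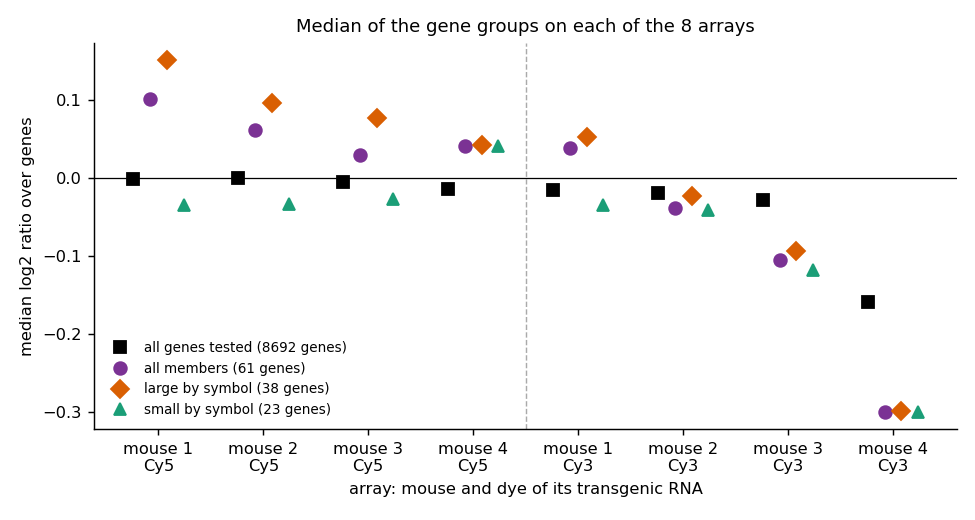
Median log2 ratio over genes (y axis) on each array (x axis, by mouse and by the dye of its transgenic RNA) for all named genes, all members and the large and small subunit genes by symbol. The member medians lie above 0 on the 4 Cy5 arrays and reach -0.30 on the Cy3 array of mouse 4, where the median over all named genes is -0.16.

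**Figure D4:**
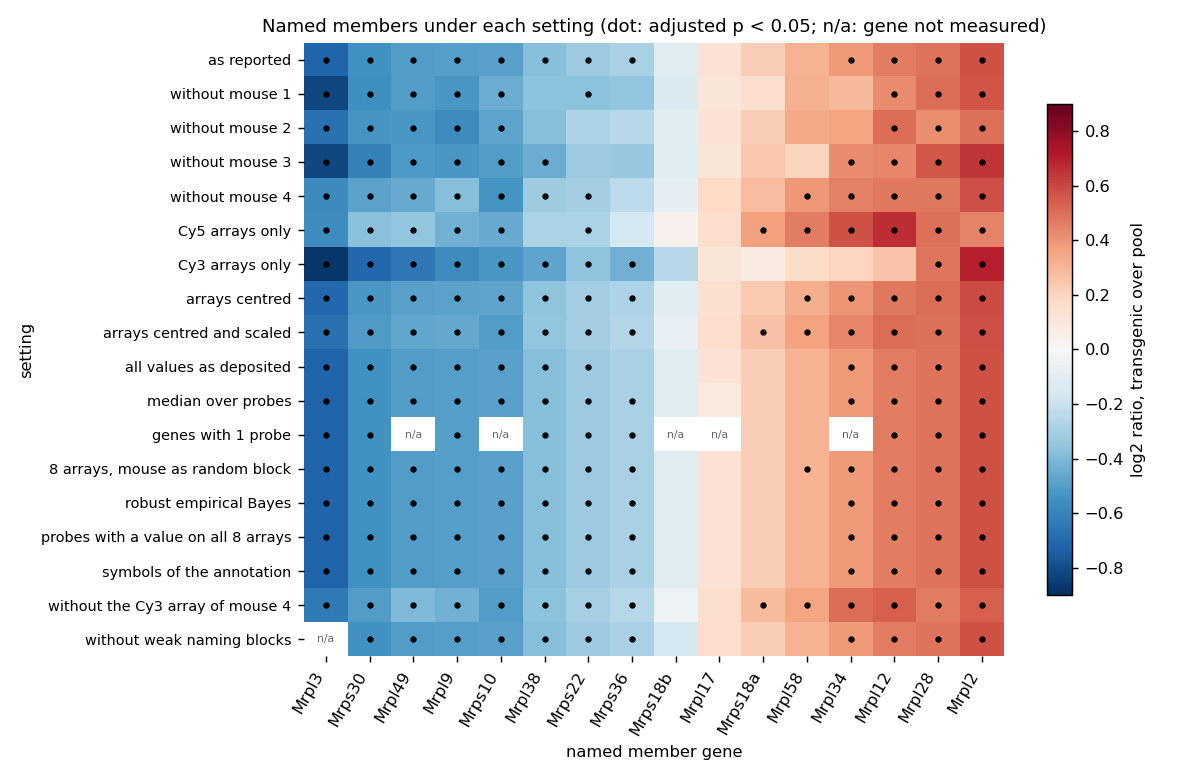
Log2 ratio (colour) of 16 named members (x axis, ordered by mean) under each setting (y axis); a dot marks an adjusted p under 0.05 and n/a a gene not measured in that setting. Mrpl3, Mrps30, Mrpl49, Mrpl9, Mrps10, Mrpl28 and Mrpl2 keep their dot wherever they were measured, while Mrps36, Mrpl38, Mrps22, Mrpl34 and Mrpl12 lose it in at least 1 setting.

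Promoters of nuclear genes for mitochondrial proteins often carry sites for NRF1, for ETS factors such as GABP and for YY1, and AP-1 factors such as Fra-2 bind a short palindrome. RefSeq promoter windows (build GRCm38.p6, 250 bases before to 50 after the start of transcription) were found for 54 of the 61 genes; the others are Mrpl4, Mrpl13, Mrpl15, Mrpl38, Mrpl54, Mrps34 and Mrps35. Each window was searched on both strands, and a gene counted if any of its windows held the letters. The 10-letter NRF1 palindrome stood in 10 of 54 member genes (18.5%) and in 10.7% of the 7038 tested genes with a window. The ETS letters CCGGAAG stood in 21 member genes (38.9%) against 18.3%, and the YY1 letters AAGATGGC in 11 (20.4%) against 5.0%. The end of the ETS letters equals the beginning of the YY1 letters, so a single stretch can hold both. Most of the YY1 matches lay at or after the start, since only 3 member genes held them fully within the 250 bases before it. The AP-1 letters TGANTCA stood in 3 member genes (5.6%), Mrps5, Mrpl33 and Mrps25, and in 7.0% of tested genes; none of the 7 lower and 4 higher genes with a window held them. The NF-Y letters CCAAT stood in 40.7% of member genes against 43.4%, the E-box CACGTG in 7.4% against 11.6%, and the SP1 letters GGGCGG in 51.9% against 65.3%. In windows of all kinds in the table, the shares were 4.6% for NRF1, 8.9% for ETS, 2.7% for YY1, 7.8% for AP-1, 37.4% for NF-Y, 7.2% for the E-box and 35.7% for SP1. A match is a description of the letters and not a site.

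The sequences of 4 called members are shown, a higher and a lower one for NRF1 and for ETS. Their opposite directions follow from this choice. Mrpl3, lower, also holds the ETS letters before the start. Members not called held 8 of the 10 member windows with the NRF1 letters and 18 of the 21 with the ETS letters. Mrpl12 (higher) and Mrpl9 (lower) hold the NRF1 palindrome 81 to 72 and 28 to 19 bases before the start. Mrpl34 (higher) and Mrps22 (lower) hold the ETS letters 37 to 31 and 11 to 5 bases before it. Each sequence is the 250 bases before the start, 5′ to 3′ on the strand of the gene, with every searched motif in capitals, which in Mrps22 includes the SP1 letters 147 to 142 bases before the start. They lie at chr11:120484387-120484636 (plus strand) for Mrpl12, chr3:94443086-94443335 (plus) for Mrpl9, chr8:71464676-71464925 (plus) for Mrpl34 and chr9:98601680-98601929 (minus) for Mrps22.
Mrpl12: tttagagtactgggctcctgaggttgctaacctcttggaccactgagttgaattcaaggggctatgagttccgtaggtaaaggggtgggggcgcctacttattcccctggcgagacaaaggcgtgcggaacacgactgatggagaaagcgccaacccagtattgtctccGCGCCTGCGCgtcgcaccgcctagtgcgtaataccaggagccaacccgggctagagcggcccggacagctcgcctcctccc
Mrpl9: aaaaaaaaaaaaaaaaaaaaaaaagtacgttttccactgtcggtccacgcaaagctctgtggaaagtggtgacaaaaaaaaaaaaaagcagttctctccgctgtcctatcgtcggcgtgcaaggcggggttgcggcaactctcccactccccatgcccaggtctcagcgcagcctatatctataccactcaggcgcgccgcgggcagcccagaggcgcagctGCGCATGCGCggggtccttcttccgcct
Mrpl34: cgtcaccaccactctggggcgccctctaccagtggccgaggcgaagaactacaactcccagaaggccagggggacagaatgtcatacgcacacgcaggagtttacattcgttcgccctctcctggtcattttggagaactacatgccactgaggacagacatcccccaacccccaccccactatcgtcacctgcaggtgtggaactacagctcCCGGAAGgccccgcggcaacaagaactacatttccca
Mrps22: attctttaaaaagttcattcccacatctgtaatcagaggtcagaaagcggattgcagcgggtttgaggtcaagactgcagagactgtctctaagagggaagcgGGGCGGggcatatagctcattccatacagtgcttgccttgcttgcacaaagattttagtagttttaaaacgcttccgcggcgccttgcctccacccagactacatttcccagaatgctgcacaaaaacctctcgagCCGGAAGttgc

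Other genes of mitochondrial translation follow by role, and their counts stand beside the 18.4% lower and 13.5% higher of all named genes. Without any 1 mouse those shares of all named genes fell to 10.9% to 13.9% lower and 6.94% to 11% higher. On the Cy5 arrays alone they were 16.1% lower and 16.2% higher, and on the Cy3 arrays alone 14.3% and 7.9%. Of 4 measured subunits with other symbols, Chchd1 (mS37) was lower, at -0.26, -0.54, -0.40 and -0.76 in mice 1 to 4 (mean -0.49 ± 0.21, adjusted p = 0.0098), though not on the Cy5 arrays alone, and Dap3, Ptcd3 and Gadd45gip1 did not pass. Of 15 measured assembly and ribosomal RNA modification genes, 2 were lower and 1 higher. The lower ones were Mrm1 (-0.54 ± 0.23), which methylates the large ribosomal RNA, and Nsun4 (-0.34 ± 0.15), which methylates the small one. Dhx30, an RNA helicase, was higher (0.21 ± 0.024, adjusted p = 0.0493). Without any 1 mouse the call on Dhx30 was lost, and without mouse 3 or mouse 4 only 1 assembly gene was lower. Of 12 translation factors 1 changed: Tufm, the elongation factor that brings transfer RNA to the ribosome, was lower (-0.25 ± 0.12, adjusted p = 0.0483), and this call was lost without any 1 mouse and with arrays centred and scaled. The list medians were 0.041, 0.0075 and 0.071.

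The list of mitochondrial aminoacyl-tRNA synthetases, which load transfer RNA with amino acids, had 10 measured genes. Among these are Gatb and Gatc, which are not synthetases and did not pass. In this list 4 genes were higher, where 13.5% of all named genes were, and 0 lower (4 had an unadjusted p under 0.05 in the limma test). The higher ones were Gars (0.54 ± 0.26), which also serves the cytosol, Fars2 (0.52 ± 0.35), Vars2 (0.35 ± 0.057) and Tars2 (0.33 ± 0.17). The list median was 0.16, and it was above 0 in all mice (0.079 to 0.22). Leaving out mice 1, 2, 3 and 4 in turn left 1, 3, 3 and 2 of these genes called higher, and the Cy3 arrays alone 2. Over all named genes, the same steps called 6.94%, 8.37%, 8.86% and 11% higher, and the Cy3 arrays alone 7.9%. Genes for upkeep of mitochondrial DNA and RNA went more to the other side, with 7 of 19 lower and 1 higher and a median of -0.23. Tk2, a mitochondrial thymidine kinase (-0.53 ± 0.14), Tfam, which packages mitochondrial DNA (-0.53 ± 0.16), and Mtpap, the mitochondrial poly(A) polymerase (-0.44 ± 0.21), were lower. Mterf1a, a factor that binds mitochondrial DNA, was higher (0.52 ± 0.16). Without mice 1, 2, 3 and 4 in turn, 4, 3, 3 and 5 of the upkeep genes were lower, where 10.9%, 11.5%, 13.9% and 13.2% of all named genes were.

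Transcription regulators of nuclear genes for mitochondria had 5 of 10 measured genes lower and 2 higher, with a median of -0.38. Tfam, lower, was counted both here and among the upkeep genes. Gabpa, the DNA-binding subunit of the ETS factor GABP, read -0.47, -0.74, -0.16 and -1.20 in mice 1 to 4 (mean -0.64 ± 0.44, adjusted p = 0.0206), widely spread but below 0 in each. Yy1 read -0.55, -0.61, -0.31 and -0.69 (mean -0.54 ± 0.16, adjusted p = 0.005). The coactivator gene Ppargc1b was higher (0.43 ± 0.31, adjusted p = 0.0336), and so was Nfe2l2, the regulator of oxidative stress genes (0.33 ± 0.17). Nrf1, the gene of the factor NRF1, lay near 0 and did not pass (-0.025 ± 0.080, adjusted p = 0.82). Ppargc1a (-0.29 ± 0.23, adjusted p = 0.0672) and Esrra (0.21 ± 0.21, adjusted p = 0.134) did not pass either. The lower regulators numbered 4 or 5 without any 1 mouse, but the higher ones were both lost without mouse 1 or mouse 2, and 1 was left without mouse 3 or mouse 4. Over all named genes the share called higher also fell without any 1 mouse, from 13.5% to between 6.94% and 11%. Beside these regulators, the called member genes with ETS letters were Mrpl3 and Mrps22, lower, and Mrpl34, higher. The other member genes with these letters were not called. No relation between a regulator and the members was tested.

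Ribosomal proteins of the cytosol and respiratory chain subunits are the nearest groups for comparison. Both were taken by symbol, so each holds some genes that are not subunits. The first includes Rps19bp1, and the second the assembly factors Ndufaf1, Ndufaf3, Ndufaf5 and Ndufaf7, of which Ndufaf1 and Ndufaf7 were lower. Of 63 cytosolic ribosomal protein genes, 6 were lower and 10 higher (25.4% in all), with a median of 0.014. Their mouse medians, 0.18, 0.083, 0.059 and -0.24, were highest in mouse 1 and lowest in mouse 4, as were those of the members. Mouse 1 was also highest and mouse 4 lowest for all named genes (-0.0062 and -0.06) and the respiratory chain list (0.060 and -0.21). Of the cytosolic ribosomal protein genes, Rpsa (0.81 ± 0.17), Rps26 (0.65 ± 0.14) and Rpl39l (0.53 ± 0.24) rose most. Gene copies of near-identical sequence are common in this family. Without mice 1, 2, 3 and 4 in turn, 4, 1, 4 and 5 of these genes were lower and 4, 4, 5 and 11 higher. Over all named genes, 10.9%, 11.5%, 13.9% and 13.2% were then lower and 6.94%, 8.37%, 8.86% and 11% higher. The Cy5 arrays alone called 22 of the cytosolic genes higher (16.2% of all named genes) and the Cy3 arrays 3 (7.9%). Of 73 respiratory chain and ATP synthase genes, 18 were lower and 9 higher (37.0%), with a median of -0.076. The lowest were Atp5j (-0.64 ± 0.17), of the stalk of ATP synthase, and Cox8b and Cox6a2, the muscle forms of cytochrome oxidase subunits (-0.60 ± 0.16 and -0.59 ± 0.14). Here the same steps gave 13, 12, 11 and 16 lower and 4, 4, 5 and 8 higher genes, with 18 higher on the Cy5 arrays and 4 on the Cy3 arrays. Of 28 genes for import into mitochondria and for their proteases, 5 were lower and 1 higher, with a median of -0.054. Grpel1, a partner of the import motor, was among the lower (-0.54 ± 0.43). Without mice 1, 3 and 4 in turn 3, 3 and 2 of the import and protease genes were lower, and none was without mouse 2; the higher call, on Tomm6, was lost without mouse 1, 2 or 3. No difference between these lists and the members was tested.

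**Figure D5:**
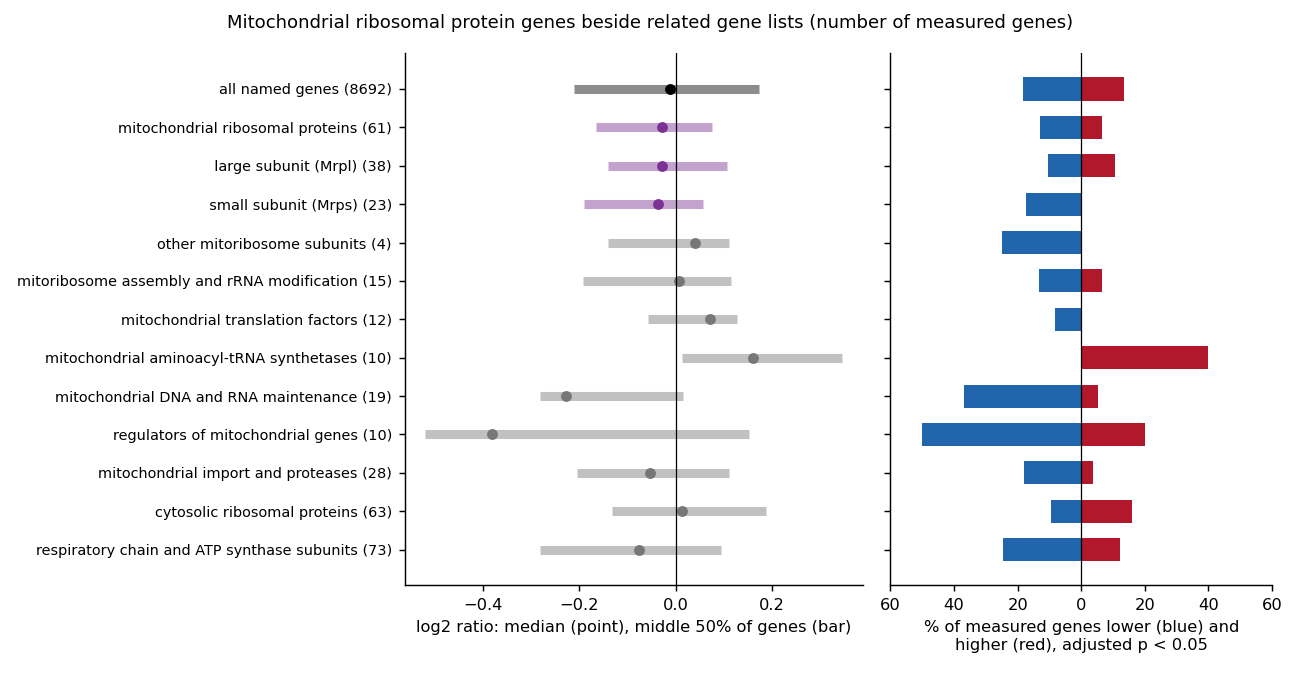
Left, median (point) and middle range from the lower to the upper quartile (bar) of the log2 ratio for all named genes, the members and related lists, with the number of measured genes; right, percent of each list lower (blue) and higher (red) at an adjusted p under 0.05. The members have a narrower range than all named genes and a lower share of calls, 19.7% against 31.9%. The translation factors (8.3%), assembly genes (20.0%) and cytosolic ribosomal protein genes (25.4%) share both traits. The regulators, upkeep genes, synthetases and respiratory chain genes have a higher share of calls than all named genes.

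Whole lung mixes many cell types, and in such RNA fewer cells of a type and less RNA per cell cannot be told apart. Over all named genes, 18.4% were lower and 13.5% higher. Of 30 measured heart and skeletal muscle markers 24 were lower and 0 higher (26 had an unadjusted p under 0.05 in the limma test), with mouse medians from -0.61 to -0.35. Muscle is rich in mitochondria, and the markers Cox8b, Cox6a2 and Cox7a1 were also counted in the respiratory chain list. Adipose markers had 10 of 17 lower and 1 higher (-0.48 to -0.24). Macrophage markers had 11 of 17 higher and 1 lower, Marco (0.61 to 1.45), lymphocyte markers 6 of 10 higher and 1 lower (0.24 to 0.99), and cell cycle markers 16 of 22 higher and 0 lower (0.32 to 0.63). Of the lung's own cells, alveolar type 1 markers had 6 of 7 lower, alveolar type 2 markers 1 of 6 higher, fibroblast and smooth muscle markers 3 of 9 lower, endothelial markers 3 of 11 lower and 2 higher, and club and ciliated cell markers 1 of 8 lower. Neutrophil markers had 4 of 11 lower and 5 higher. The part of these shifts in the values of the members was not tested.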

How the data were processed

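Per the labels' protocols, lung RNA was purified on RNeasy columns, and its cDNA received Cy3 or Cy5 by indirect labelling. The authors deposited a log2 ratio for every probe of an array; no source used here gives the image software, the background correction, the normalization or any centring. Values beyond 10 in size (498) were set to missing beside 706 missing as deposited, and 20621 probes with a value in each mouse were kept. Names came from the platform annotation at an offset of 11, up to number 20237, which left 1 probe of Mrps6 unnamed. Symbols were compared with RefSeq, and 0 of them changed.

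Probes of a gene and the 2 arrays of a mouse were averaged. For 8692 genes, the moderated test of limma 3.58.1 (R 4.3.3; lmFit and eBayes; degrees of freedom 3 residual, 4.27 prior) compared the 4 mouse means with 0, on both sides, with Benjamini-Hochberg adjustment. Probes were tested likewise. Mice were compared with an F test and dyes with the within-mouse difference over 8645 genes. Descriptions used Python 3.11.15, pandas 2.3.3 and matplotlib 3.10.9. The fits were tested on simulated data.

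Members, lists and tests were chosen with earlier results of these data known. Named were members past the threshold, the 5 highest and 5 lowest, members with disagreeing probes, the Mrps18 genes, those differing most between mice or dyes past the threshold, and up to 3 changed genes of each list; other members named were picked after their values were seen. Alternatives left out mice, dyes or weakly named probes, or changed centring, scaling, missing values, probe averaging and the model. Protein sequences were not analysed here.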

Additional observations from a re-analysis of the deposited data

Results flagged for a closer look

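Mrpl54, a mitochondria-specific protein of the large subunit, had 1 mouse far from the others. It read 0.11, 0.14, 0.0835 and -0.203 in mice 1 to 4, and mouse 4 was low on both of its arrays (-0.206 in Cy5 and -0.20 in Cy3). The gap of mouse 4 to the nearest other mouse was 0.832 of the whole range, just above the critical value of Dixon's test for 4 samples. This was 1 of 61 members, and chance flags about 1 in 20 such groups.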

How the results depend on the processing

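The directions of the 12 called members were the same in every alternative in which they were measured. Mrpl3, Mrps30, Mrpl49, Mrpl9, Mrps10, Mrpl28 and Mrpl2 also stayed past the threshold; Mrpl3 could not be measured without the weakly named probes. Leaving out 1 mouse gave 5 to 7 lower members (5 without mouse 2), 3 to 5 higher ones, a median of -0.0722 to -0.002 and a large minus small difference of 0.0197 to 0.075. The higher members numbered 10 on the Cy5 arrays, 2 on the Cy3 arrays and 8 without the Cy3 array of mouse 4, an alternative chosen after seeing the data. With arrays centred and scaled, also chosen after seeing the data for this test, 1 member differed between mice in place of 0. The member median turned positive on the Cy5 arrays (0.0096) and without the Cy3 array of mouse 4 (0.0037), the subunit difference turned to -0.0011 over genes with 1 probe, and as a difference of means it was 0.0586 (SD over mice 0.0625); each of these moved by less than the spread over mice. The causes were not tested. Of the list medians, 6 moved by more than their spread over mice: other subunits (-0.0385), upkeep of mitochondrial DNA and RNA (-0.123) and cytosolic ribosomal proteins (0.205) on the Cy5 arrays, assembly genes (-0.122) and translation factors (-0.0866) on the Cy3 arrays, and upkeep (-0.164) without mouse 4. No paired analysis was possible because only 1 group was hybridised, always against the same pool; with the mouse as a random block over 8 arrays, 9 members were lower and 5 higher. Spot intensities were not used here, so signal over background is unknown.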
